A study of Mus musculus with 3 samples.

Results

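The 9 genes described here encode transcription factors that set up and maintain the macrophage lineage, and they were chosen by symbol: Spi1, Cebpa, Cebpb, Cebpd, Cebpg, Maf, Runx1, Zeb2 and Tfec. They were 9 of 55536 annotated gene rows, of which 22028 were protein-coding, and each symbol matched 1 row. The cells were bone marrow-derived macrophages, primary cells grown from the marrow of C57BL/6J mice, and the RNA was ribosome-depleted total RNA from their cytosolic fraction, with 1 µg of starting material per library. All 3 libraries belonged to 1 group: the cells had received 100 ng/ml Lipid A, the part of lipopolysaccharide that TLR4 recognises, for 12 h, were washed out for 12 h, and were then given 100 ng/ml Lipid A again for 120 min. Sex and age were not collected. Untreated cells, cells given Lipid A a single time and the nuclear fraction were not analysed here, so the levels below are levels in this one state and not responses to Lipid A. The libraries are labelled biological replicates 1, 2 and 3 but share 1 donor entry, so differences between them may be technical. Each chi-square p-value below asks whether these libraries differ beyond counting error, and does not measure a spread between animals.

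PU.1, the product of Spi1, is an ETS-family factor that opens enhancers in myeloid progenitors and works there with Runx1 and with C/EBP factors, which bind DNA as dimers of basic leucine zippers. Cebpa is known for committing progenitors to the myeloid path, Cebpb and Cebpd for acting in inflammatory gene induction, and Cebpg for lacking a strong activation domain of its own. Maf, Zeb2 and Tfec are associated with differentiated macrophages: c-Maf with Il10 transcription and exit from the cell cycle, Zeb2 with tissue macrophage identity, and Tfec, a relative of Mitf, with the myeloid lineage.

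The libraries held 29273913, 64712406 and 37602753 expected counts over annotated genes, for replicates 1, 2 and 3. Protein-coding genes took 32.5%, 26.5% and 27.1% of all TPM (a transcript level scaled by length and by the sum over the library). All 10 listed macrophage markers reached 1 TPM in every library, with a median of 207 ± 45.8 TPM (SD, n = 3) and a summed level of 5417 to 5970 TPM. Of the markers of other cells, 0 of 5 B cell, 0 of 5 T and NK cell, 0 of 4 mast cell and 0 of 4 fibroblast genes reached 1 TPM in every library. The dendritic list had 1 of 5 (Batf3, summed level 1.31 to 1.99 TPM) and the neutrophil list 2 of 7 (S100a8 and S100a9, summed level 3.63 to 7.66 TPM). Pf4 was the 1 of 4 in the erythroid and megakaryocyte list, at 74.9 ± 17.5 TPM, while Gata1 and Hba-a1 were at 0.

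To place the transcripts, the sequence upstream of the RefSeq start sites was read for the members that the promoter table holds, on build GRCm38.p6 and 5′ to 3′ on the gene's strand, with annotated exon bases left out. The windows below are shown because they cover both Runx1 promoters, the most variable pair of genes (Cebpb and Tfec), the myeloid C/EBP gene Cebpa, and the distal Zeb2 start. Capitals mark matches, on either strand, to 5 motifs. The core promoter box was searched as TATAAA. The C/EBP motif was searched as TTGCNNAA. The PU box, the core that PU.1 recognises, was searched as GAGGAA, the RUNX motif as TGTGGT, and the core of a cAMP response element as TGACG.
Cebpb, chr2:167688665-167688914, plus strand: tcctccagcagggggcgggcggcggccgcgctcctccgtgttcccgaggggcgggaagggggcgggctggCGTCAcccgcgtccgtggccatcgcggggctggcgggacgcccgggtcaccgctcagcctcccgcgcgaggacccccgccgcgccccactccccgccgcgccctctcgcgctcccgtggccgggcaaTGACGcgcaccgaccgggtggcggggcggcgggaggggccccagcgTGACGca
Cebpa, chr7:35119043-35119292, plus strand: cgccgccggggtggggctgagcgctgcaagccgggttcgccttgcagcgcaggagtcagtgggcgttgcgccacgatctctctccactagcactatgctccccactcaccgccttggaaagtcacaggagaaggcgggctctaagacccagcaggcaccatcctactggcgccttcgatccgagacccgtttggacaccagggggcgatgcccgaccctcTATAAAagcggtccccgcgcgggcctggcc
Tfec, chr6:16898442-16898691, minus strand: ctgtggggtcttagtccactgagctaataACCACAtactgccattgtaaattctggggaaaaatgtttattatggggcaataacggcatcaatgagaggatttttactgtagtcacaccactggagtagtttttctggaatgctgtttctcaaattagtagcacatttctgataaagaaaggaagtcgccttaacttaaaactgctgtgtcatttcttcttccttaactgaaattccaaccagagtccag
Zeb2 distal, chr2:45117443-45117692, minus strand: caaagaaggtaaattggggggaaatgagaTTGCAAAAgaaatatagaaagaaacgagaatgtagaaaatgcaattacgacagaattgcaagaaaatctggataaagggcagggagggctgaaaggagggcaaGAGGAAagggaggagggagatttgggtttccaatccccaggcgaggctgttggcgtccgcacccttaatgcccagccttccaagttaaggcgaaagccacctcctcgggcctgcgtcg
Runx1 distal, chr16:92826150-92826324, minus strand: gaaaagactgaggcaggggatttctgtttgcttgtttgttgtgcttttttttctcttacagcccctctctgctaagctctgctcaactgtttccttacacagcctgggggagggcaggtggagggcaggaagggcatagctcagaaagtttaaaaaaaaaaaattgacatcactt
Runx1 proximal, chr16:92697330-92697579, minus strand: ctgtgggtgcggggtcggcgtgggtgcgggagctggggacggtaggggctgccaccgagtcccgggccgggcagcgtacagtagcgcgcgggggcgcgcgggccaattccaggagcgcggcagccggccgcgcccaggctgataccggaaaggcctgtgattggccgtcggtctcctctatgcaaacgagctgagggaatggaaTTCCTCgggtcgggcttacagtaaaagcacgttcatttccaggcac

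The Cebpb window had 81.6% GC, 41 CpG pairs and 3 TGACG matches, a motif present at least once in 17.9% of all promoter windows of that length. The Cebpa window had 66.4% GC and 22 CpG, with 1 TATAAA (12.3% of windows). The Tfec window was AT-rich, with 39.2% GC and 2 CpG, and carried 1 TGTGGT match on the opposite strand (14.0% of windows). The distal Zeb2 window carried 1 TTGCNNAA (9.57%) and 1 GAGGAA (23.4%) match at 49.6% GC. The 2 Runx1 promoters differed in base composition. The distal window had 45.1% GC, 0 CpG and 0 matches to any of the motifs over 175 bases. The proximal one had 67.6% GC and 27 CpG, with 1 GAGGAA match on the opposite strand. The Cebpg window, which is not printed, had 70.4% GC, 27 CpG and 0 matches over 243 bases. Over all promoter windows the median GC was 52.4% and the median CpG number 6. A match is a description of letters and was not tested as a binding site.

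All 9 members reached 1 TPM in every library, against 39.1% of protein-coding genes. Zeb2 and Spi1 stood highest, at 135 ± 23.5 and 121 ± 14.4 TPM, and ranked 324 and 367 of 22028 protein-coding genes by mean TPM. Maf followed at 45.4 ± 10.6 TPM, Cebpb at 27.5 ± 25.2, Tfec at 22.3 ± 6.85 and Runx1 at 13.6 ± 1.56. Cebpg (6.21 ± 1.02 TPM), Cebpa (4.24 ± 0.584) and Cebpd (4.06 ± 0.667) were lowest, and Cebpa and Cebpd ranked 6040 and 6139. The median over the members was 22.2, 13.0 and 15.0 TPM in replicates 1, 2 and 3, beside a median of 8.03 ± 0.594 TPM over the 8612 protein-coding genes with at least 1 TPM in every library.

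**Figure D1:**
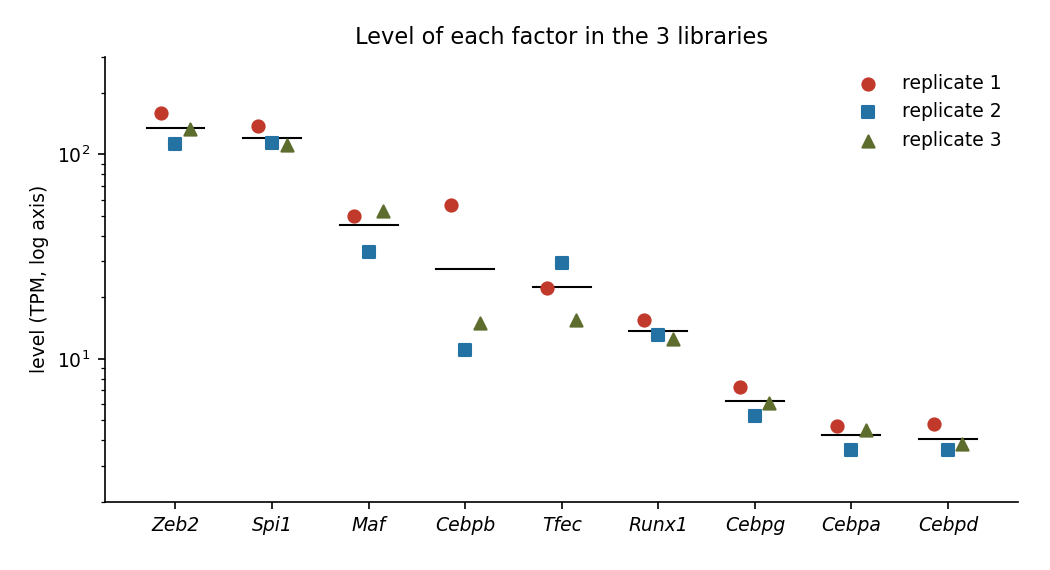
TPM of each member in each of the 3 libraries on a log axis, ordered by mean, with the mean as a bar. Zeb2 and Spi1 lie between 111 and 159.6 TPM, Cebpg, Cebpa and Cebpd between 3.56 and 7.29 TPM, and Cebpb has 1 library far above the other 2.

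Spi1 encodes PU.1 (ENSMUSG00000002111.8, chr2:91082390-91115756, plus strand). It measured 137, 113 and 111 TPM in replicates 1, 2 and 3, so replicate 1 was somewhat above a close pair. Zeb2, a zinc-finger repressor (ENSMUSG00000026872.17, chr2:44983632-45117395, minus strand), measured 159.6, 113 and 134 TPM. The ranges of the 2 genes overlapped, and Zeb2 exceeded Spi1 in 2 of 3 libraries, by 0.16 ± 0.15 on the log2(TPM + 1) scale. Spi1 exceeded Maf in 3 of 3 libraries, by 1.41 ± 0.34, with no overlap of the ranges.

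Maf (ENSMUSG00000055435.6, chr8:115682942-115707794, minus strand) measured 50.2, 33.3 and 52.7 TPM, with replicate 2 lowest. Tfec (ENSMUSG00000029553.10, chr6:16833373-16898441, minus strand) measured 22.2, 29.3 and 15.6 TPM and was the member whose highest value was in replicate 2. Runx1, the DNA-binding partner of CBFβ (ENSMUSG00000022952.17, chr16:92601466-92826149, minus strand), measured 15.4, 13.0 and 12.5 TPM. Tfec exceeded Runx1 in 3 of 3 libraries, by 0.63 ± 0.42 on the log2 scale, without overlap of the ranges.

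Among the C/EBP genes, Cebpb (ENSMUSG00000056501.3, chr2:167688915-167690418, plus strand) measured 56.5, 11.0 and 15.0 TPM. Replicate 1 was 5.15 times replicate 2, and the deposited intervals around the estimates, 53.2 to 56.9, 10.3 to 11.4 and 13.9 to 15.6 TPM, did not overlap. Cebpg (ENSMUSG00000056216.9, chr7:35046422-35056573, minus strand) measured 7.29, 5.27 and 6.06 TPM, and Cebpa (ENSMUSG00000034957.10, chr7:35119293-35121928, plus strand) 4.68, 3.58 and 4.47 TPM. Cebpd (ENSMUSG00000071637.5, chr16:15887286-15891031, plus strand) measured 4.82, 3.56 and 3.81 TPM. By TPM, Cebpa, Cebpd and Cebpg were each highest in replicate 1 and lowest in replicate 2, over a far smaller range than Cebpb. By TPM, 63.2% of the protein-coding genes with at least 1 TPM in every library were also highest in replicate 1. By counts scaled to library size (CPM), Cebpa was highest in replicate 3 (17.6, 15.7 and 18.4). Cebpd was then lowest in replicate 3 (26.6, 23.9 and 23.3). Runx1 exceeded Cebpg by 1.03 ± 0.12 and Cebpg exceeded Cebpa by 0.46 ± 0.09 on the log2 scale, each in 3 of 3 libraries and without overlap.

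The order of the members was therefore in part different from library to library. Of the 8 neighbouring pairs in the order of the means, 4 kept the same order in every library (Spi1 over Maf, Tfec over Runx1, Runx1 over Cebpg and Cebpg over Cebpa). Maf and Cebpb (1.03 ± 1.05), Cebpb and Tfec (-0.03 ± 1.32) and Cebpa and Cebpd (0.05 ± 0.12) overlapped. With 3 libraries the smallest p that an exact two-sided sign-flip test can give is 0.25, so no pair could pass a threshold of 0.05.

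Counted reads were next compared between the libraries by a chi-square test on TMM-scaled expected counts, which asks whether the libraries differ beyond counting error and says nothing about conditions. It called 72.0% of the 14568 genes tested, and 80.2% of the protein-coding genes with at least 1 TPM in every library, at an adjusted p below 0.05. All 9 members were called, a share to be read against that background. The size of the difference separated them more: the ratio of the highest to the lowest library had a median of 1.30 over the members, and of 1.23 over the 8612 expressed genes, with 1.82 as their 95th percentile.

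Cebpb had the largest ratio, 4.26, above 99.9% of the expressed protein-coding genes, and its scaled level was 116, 27.2 and 33.8 CPM (counts scaled to library size). Without replicate 1 the ratio fell to 1.24, and under the other settings tried it lay between 3.46 and 4.36. Tfec followed at 2.05 (97.4th percentile, highest in replicate 2), and was 1.31 without replicate 2. Maf came next at 1.53 (86.0th percentile, highest in replicate 3), and Zeb2 at 1.32 (66.9th percentile, highest in replicate 1). The smallest ratios were those of Spi1 (1.14, Benjamini-Hochberg adjusted chi-square p = 1.04e-26), Cebpd (1.14, p = 0.0229), Runx1 (1.17, p = 1.26e-08) and Cebpa (1.18, p = 0.00468). Each of these 4 lay below the median ratio of expressed genes. All 9 members stayed called with DESeq2 size factors (71.8% of genes called) and without a filter on low counts (50.3%). Cebpa lost the call in the second deposited quantification (82.9%), without replicate 2 (52.5%) and without replicate 3 (54.0%). Cebpd and Runx1 lost it after scaling to the protein-coding total (73.8%), and Cebpd and Cebpg without replicate 1 (57.1%).

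**Figure D2:**
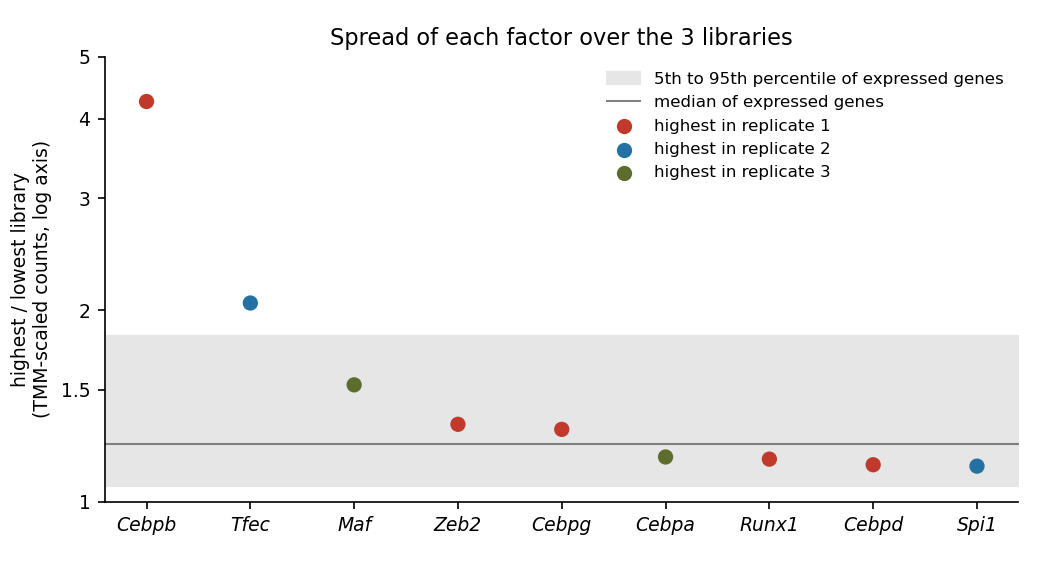
Ratio of the highest to the lowest library (TMM-scaled counts, log axis) of each member, against the distribution over the 8612 protein-coding genes with at least 1 TPM in every library. Cebpb at 4.26 and Tfec at 2.05 lie beyond the 95th percentile of 1.82, and Spi1, Cebpd, Runx1 and Cebpa below the median of 1.23.

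By TPM, 7 of the 9 members were highest in replicate 1, where 63.2% of the expressed protein-coding genes were highest as well. Tfec was the 1 member highest in replicate 2 (background 17.7%) and Maf the 1 highest in replicate 3 (19.1%). By scaled counts 5, 2 and 2 members were highest in replicates 1, 2 and 3, against backgrounds of 34.9%, 45.9% and 19.2%. Spi1 is an example of the dependence on scale: it was highest in replicate 1 by TPM and in replicate 2 by scaled counts. In bulk libraries fewer cells of a type and less RNA per cell cannot be told apart.

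Because C/EBP proteins pair with each other, the composition of the family was followed as shares of its summed TPM over Cebpa, Cebpb, Cebpd, Cebpe and Cebpg. Ddit3, a related factor, was left out and measured 138, 82.7 and 73.4 TPM in replicates 1, 2 and 3. The shares are therefore not shares of all possible partners. The sum was 73.4, 23.4 and 29.3 TPM in replicates 1, 2 and 3, and Cebpb made up 77.0%, 46.9% and 51.1% of it. Without Cebpb the sum was 16.9, 12.4 and 14.3 TPM, a far narrower range. Cebpg held 9.93%, 22.5% and 20.7% of the family and Cebpa 6.37%, 15.3% and 15.2%, so both shares were lowest in replicate 1. A higher Cebpb share lowers the other shares by construction. By TPM both genes were highest in replicate 1, at 7.29 and 4.68. The ratio of Cebpb to Cebpa was 12.1, 3.07 and 3.35, and Cebpe, the granulocyte member, was at 0.0333 ± 0.0493 TPM.

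**Figure D3:**
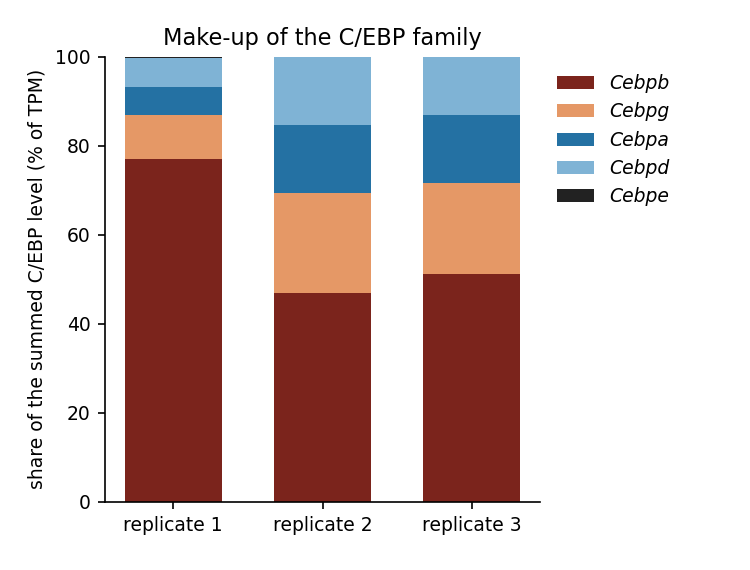
Share of the summed C/EBP TPM held by each gene in each library (percent), stacked by gene from 0. Ddit3 is not in the sum. The Cebpb segment takes 77.0%, 46.9% and 51.1% in replicates 1, 2 and 3.

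The 3 genes named next were nearest to Cebpb in their pattern over the 3 libraries, by Euclidean distance of centred log2 scaled counts among 3743 protein-coding genes of at least 10 TPM. Tgtp1, an interferon-inducible GTPase (distance 0.263), measured 31.0, 4.82 and 7.02 TPM. Ifit1bl1, of the interferon-induced IFIT family (0.284), measured 163.9, 36.7 and 37.7 TPM, and Ccl12, a monocyte chemoattractant (0.419), 188, 51.0 and 72.1 TPM. Like Cebpb, all of these were highest in replicate 1, and with 3 libraries this likeness carries no test.

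Members were also set against relatives of the same family. Zeb2 stood 59.8, 60.6 and 49.4 times above Zeb1 (2.41 ± 0.480 TPM), the steadiest of these ratios. Spi1 exceeded its ETS relative Spic (10.9 ± 0.743 TPM) 13.6, 10.1 and 9.65 times. Runx1 exceeded Runx2 (0.807 ± 0.379 TPM) 12.4, 20.3 and 23.1 times and Runx3 was at 0.28 ± 0.200 TPM, so Runx1 was the highest RUNX gene in every library. Tfec did not lead its family: Tfe3 was higher in 3 of 3 libraries (33.2 ± 1.96 TPM, with Tfec at 0.626, 0.906 and 0.489 of its level), Mitf (18.3 ± 2.22 TPM) was below Tfec in 2 of 3, and Tfeb was at 3.47 TPM.

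The other family relatives were described from a list of 25 related factors, of which 18 reached 1 TPM in every library and 22 could be tested. The chi-square test called 21 of them, where 72.0% of all genes tested and 80.2% of the expressed protein-coding genes were called. Of the 21 called relatives, 17, 2 and 2 were highest by TPM in replicates 1, 2 and 3, beside 63.2%, 17.7% and 19.1% of the expressed protein-coding genes. The median over all 25 was 9.64 ± 0.981 TPM. Ddit3, which encodes the C/EBP-homologous protein CHOP of the stress response, was the highest, at 138, 82.7 and 73.4 TPM, with replicate 1 above the others. Relatives of at least 10 TPM not yet named were the ETS factors Ets2 (19.2 ± 2.69), Elf4 (18.2 ± 2.21), Elf1 (15.2 ± 4.07), Etv6 (15.1 ± 2.31) and Fli1 (15.0 ± 3.47), the RUNX partner Cbfb (14.7 ± 2.32) and the small Maf genes Maff (13.2 ± 1.00) and Mafg (11.5 ± 0.834). Mafg was the tested relative that was not called, and Runx1t1 was the lowest at 0.00333 TPM. Cbfb therefore stood at a level like that of Runx1, 14.7 against 13.6 TPM.

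Of 18 other regulators known in myeloid cells, 13 reached 1 TPM in every library and 15 of 17 tested were called (12, 2 and 1 highest by TPM in replicates 1, 2 and 3), with a median of 5.92 ± 2.02 TPM. Id2, an inhibitor of basic helix-loop-helix factors, was highest at 173 ± 57.6 TPM, followed by Ikzf1 (36.8 ± 6.03), Lmo2 (35.4 ± 9.37) and the oxysterol receptor Nr1h3 (33.9 ± 5.20). Hoxa9, a progenitor factor, was at 0. Of 24 genes known as targets of the members, 21 reached 1 TPM in every library and 22 of 22 tested were called (14, 4 and 4 highest by TPM), with a median of 55.1 ± 6.21 TPM. Both counts stand beside the same shares: 72.0% of genes tested and 80.2% of expressed protein-coding genes called, and 63.2%, 17.7% and 19.1% of the latter highest in replicates 1, 2 and 3. Saa3, an acute-phase gene with C/EBP sites, measured 4958, 1846 and 6201 TPM and was lowest in replicate 2. Lyz2, lysozyme, measured 2751 ± 2.59 TPM, C1qb 912 ± 69.7 and C1qc 676 ± 96.0, and the granule gene Elane was lowest at 0.0233 TPM. The small SD of Lyz2 holds for TPM only: by scaled counts its highest library was 1.21 times its lowest.

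Transcript levels were then used to see how the multi-promoter members were divided over annotated starts, without a direct measure of start use. Runx1 transcripts beginning at the distal promoter (3 transcripts, starts between 92825778 and 92826149) held 42.9%, 36.5% and 44.4% of its TPM. Those from the proximal promoter (4 transcripts, 92695495 to 92697328) held 57.1%, 63.5% and 55.6%, so the proximal group was larger in 3 of 3 libraries. In the second deposited quantification the proximal share was 65.3%. The CpG-poor and CpG-rich windows printed above were thus both upstream of expressed transcripts.

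Spi1 transcripts from an upstream start group (2 transcripts, 91082390 to 91082408) held 24.6%, 18.3% and 18.6% of its TPM (29.5 ± 4.11% in the second quantification), and the group at 91096096 to 91096780 held 79.5 ± 3.54%. Zeb2 had 29 transcripts. The group with the most distal start, 45117395, a short way downstream of the window printed above, held 13.2 ± 1.36% of its TPM. In the second quantification it held 6.20 ± 1.11%. A second group (12 transcripts, 45112890 to 45113508) held 44.2%, 35.9% and 48.5%, and the next one (13 transcripts, 45110076 to 45111174) 37.1%, 47.9% and 33.8%. These last groups changed places in replicate 2, where the one starting at 45110076 to 45111174 was the larger. A single transcript starting at 45054241 was at 0% in all 3 libraries and at 3.11%, 3.23% and 13.7% in the second quantification.

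**Figure D4:**
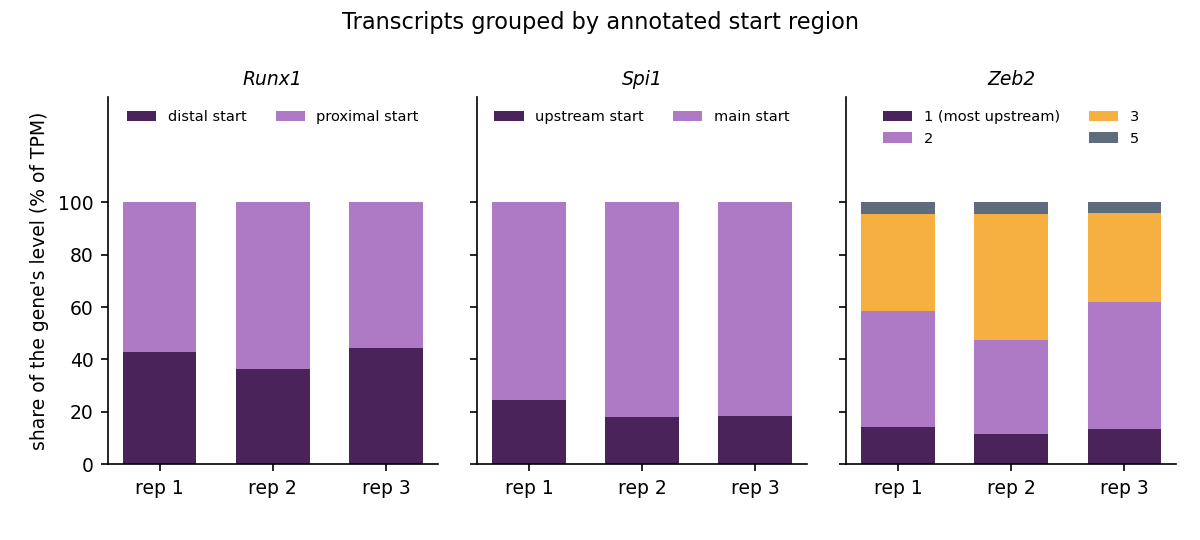
Share of each gene's TPM (percent, from 0) by group of transcript starts for Runx1, Spi1 and Zeb2 in the 3 libraries. A start joined the group of the start before it when at most 1500 bases away, so a group can be wider than that. The proximal Runx1 group holds 55.6% to 63.5%, and the upstream Spi1 group 18.3% to 24.6%.

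Cebpb has 1 annotated transcript, and among the other C/EBP genes Cebpd-201 held 98.3 ± 0.495%, Cebpg-202 86.0 ± 8.65% and Cebpa-201 82.2 ± 9.08% of the TPM of their gene. In the second quantification Cebpg-202 held 57.5 ± 11.0%, and in replicate 2 there Cebpg-201 was above it, at 50.3% against 47.3%. Cebpa, Cebpb and Cebpd are intronless in these transcripts, with lengths of 2626, 1504 and 3746 bases, and their ratios between libraries were 1.18, 4.26 and 1.14. Tfec-201 (7 exons) held 96.9 ± 2.39% and Spi1-201 (5 exons) 73.4 ± 3.73%. The leading Maf transcript, Maf-202, is a single exon of 6360 bases with 81.4 ± 4.61%, and Maf-201 with 3 exons held the rest. No single transcript led Zeb2 in every library. The one with the highest mean, Zeb2-214, held 24.5 ± 12.1%, but Zeb2-202 was the higher in replicates 1 and 3, at 49.5 against 29.5 and 30.5 against 22.1 TPM.

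Transcripts annotated as retaining an intron were followed as a share of each gene's expected counts. For Zeb2 the share was 1.44%, 1.30% and 6.31% in replicates 1, 2 and 3. Runx1 had 0.228%, 0.507% and 3.37%, Tfec 1.16%, 0.241% and 4.31%, and Cebpg 0.835%, 0.303% and 1.87%. Some of these shares rest on few expected counts: 12.2, 7.45 and 29.0 for Cebpg, and 6.81, 30.9 and 117 for Runx1. All 4 members with such transcripts were highest in replicate 3, as were 83.1% of the 4054 expressed protein-coding genes with at least 10 such counts in 1 library (6.71% were highest in replicate 1 and 10.2% in replicate 2), and the share over all protein-coding genes was 1.47%, 1.52% and 2.47%. The nuclear-retained RNAs Malat1 (191, 133 and 952 TPM) and Neat1 (14.3, 10.9 and 55.7 TPM) were also highest in replicate 3, and their part in these shares was not tested. In the second quantification Zeb2 (1.42%, 1.28% and 6.43%), Runx1 and Tfec kept replicate 3 highest, whereas Cebpg had 5.36%, 0.471% and 3.77% and was highest in replicate 1.

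**Figure D5:**
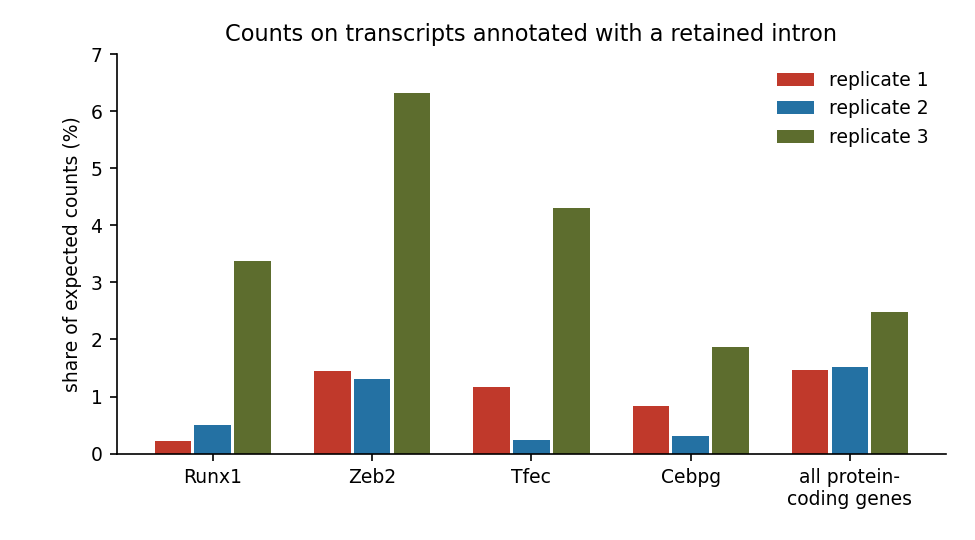
Share of expected counts in transcripts annotated as retaining an intron (percent, from 0) for the 4 members that have them and for all protein-coding genes, by library. Replicate 3 is highest in each, reaching 6.31% for Zeb2 against 2.47% over all protein-coding genes.

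Several members share exon bases with a gene on the opposite strand: Zeb2 with Zeb2os (17.9, 15.4 and 20.5 TPM), Maf with Gm15655 (14.9, 8.08 and 25.9 TPM), Cebpb with Tmem189 (37.8, 29.3 and 26.3 TPM), Cebpd with Spidr (2.87, 2.58 and 2.54 TPM) and Runx1 with Gm26626 (mean 0.0767 TPM). Whether the counting used strand is not given in the sources used here, so reads from these overlaps cannot be told apart. Gm15655 was lowest in replicate 2 and highest in replicate 3, as was Maf. Tmem189 was highest in replicate 1, as was Cebpb, over a smaller range. Whether overlapping reads play a part in the levels of Maf or Cebpb was not tested.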

How the data were processed

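RNA-seq was analysed from 3 libraries of 1 group. For each library the authors deposited a table of genes and 2 of transcripts. Per the file headers, the first pair holds expected counts with TPM. The other transcript table holds estimated counts with TPM per the file headers and was summed here per gene. The interval bounds around TPM were used as the authors deposited them. Build mm10 and annotation M21 are per the labels and readme files; aligner and quantifier were not given in the sources used here. Of 81881 rows in a gene table, 55536 matched the annotation. The remaining rows name no gene, held 0.350%, 0.169% and 0.168% of expected counts in replicates 1, 2 and 3, and stayed out of library sizes.

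The members and lists were chosen with earlier results of these data known. Expected counts were rounded, scaled by TMM (edgeR 4.0.16; DESeq2 1.42.0 size factors as an alternative) and compared between libraries by a chi-square test for genes with at least 10 counts in 1 library, with Benjamini-Hochberg adjustment at 0.05, in R 4.3.3 and Python 3.11.15 (scipy 1.17.1, pandas 2.3.3, numpy 2.4.6, matplotlib 3.10.9). The chi-square script was tested on simulated data. Differences between genes used log2(TPM + 1). Levels are TPM as deposited. TPM was taken over all rows, so a comparison of TPM between libraries also depends on the share that protein-coding genes took in each.

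Named genes were every member, the 4 highest and the lowest gene of each list, related factors of at least 10 TPM, and the 3 genes nearest to the member with the largest ratio. Relatives of a member's own family, marker genes, overlapping genes, Malat1 and Neat1 were added. Some relatives are not reported here. Promoter sequences are from RefSeq, GRCm38.p6; 6 members had one, and Spi1, Cebpd and Maf were not in that table. Alternatives were the second quantification, rescaled TPM, posterior mean TPM, other filters, scalings and pseudocounts, and leaving out each library; scaling to the protein-coding total and the intron share in the second table were added after seeing the data.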

Additional observations from a re-analysis of the deposited data

How the results depend on the processing

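The median level over the members was 16.7 TPM, and 8.25 TPM in the second quantification and 56.1 TPM after rescaling over protein-coding and long noncoding genes; without each library in turn it lay between 14.0 and 18.6 TPM. Of the 9 members, 9 stayed called with DESeq2 size factors (71.8% of all genes tested) and without a filter on low counts (50.3%). The second quantification called 8 (82.9% of genes) and scaling to the protein-coding total 7 (73.8%). Without each library 7 to 8 were called, beside 57.1%, 52.5% and 54.0% of genes without replicates 1, 2 and 3. These member counts are to be read against those shares. The number of neighbouring pairs in the same order in every library was 4, and 6 in the second quantification, 4 with a pseudocount of 0.1, and 4 to 6 without each library. The Cebpg intron share of replicate 3 minus the higher of the other libraries reversed to -1.59 percentage points in the second quantification; the cause was not tested. No paired analysis was possible because there is 1 group. Depth limits the lowest members most: Cebpa had 507, 989 and 723 expected counts.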
